A study of Mus musculus with 6 samples.

Results

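Motile cilia genes encode the working parts of the beating cilium and the factors that switch those parts on. The 43 genes described here were picked by name, with earlier results on these same arrays in view, and each was read from the array rows whose annotation gives that gene symbol alone. All 43 were found, out of 19938 genes with such a row. A gene with several rows was read from its brightest one on average. Because levels on these arrays led to the choice, the members' levels and differences are a description, and no test is drawn from them.

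A motile cilium is built on an axoneme, a ring of microtubule doublets around a central pair. Outer and inner dynein arms on the doublets are the motors, radial spokes and the central apparatus regulate the stroke, and docking, ruler and inner-lumen proteins hold the repeat in register. Foxj1 and the Rfx factors are the transcription factors known for turning on these genes. In the brain many motile cilia are carried by ependymal cells, which line the ventricles and move cerebrospinal fluid. The epithelial cells of the choroid plexus are multiciliated too. The members are axonemal genes and their regulators, which such cells share, so they do not by themselves tell ependymal cells from other multiciliated cells.

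The cultures were primary cells from brains of OF1 mouse embryos at embryonic day 17, differentiated in fetal calf serum into a mixture of neurons and glia and then kept in serum-free medium without growth factors. 1,25-dihydroxyvitamin D3 (1,25D), the hormonal form of vitamin D, was given at 10 nM to 3 cultures, and 3 control cultures received vehicle, although the control samples are also labelled untreated. The labels call the 3 cultures of a group biological replicates and number them 1 to 3, and they do not say whether equal numbers share embryos or a day. No source used here says how long the hormone was given or what share each cell type had. Each culture was read on 1 Affymetrix array, and levels are log2 intensities after RMA, a normalisation across arrays that gives no detection call. The arrays' median intensities lay between 240.4 and 252.9 on the linear scale, so their general brightness was close. A row's level depends on its probes, so levels are compared between arrays for 1 gene and not between genes.

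The 43 genes varied together from culture to culture, and the order of the cultures was not the order of the treatment. Their median log2 intensity was 7.83, 8.10 and 7.98 in 1,25D cultures 1, 2 and 3, against 8.38, 8.51 and 7.63 in control cultures 1, 2 and 3. Control cultures 1 and 2 were thus the highest and control culture 3 the lowest, with the 3 hormone-treated cultures between them. Summed on the linear scale, the 43 intensities came to 12075, 16461 and 15303 in the 1,25D cultures and to 19861, 20662 and 11535 in the control cultures. In RNA from whole cultures, fewer ciliated cells and less of these transcripts per cell cannot be told apart.

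**Figure D1:**
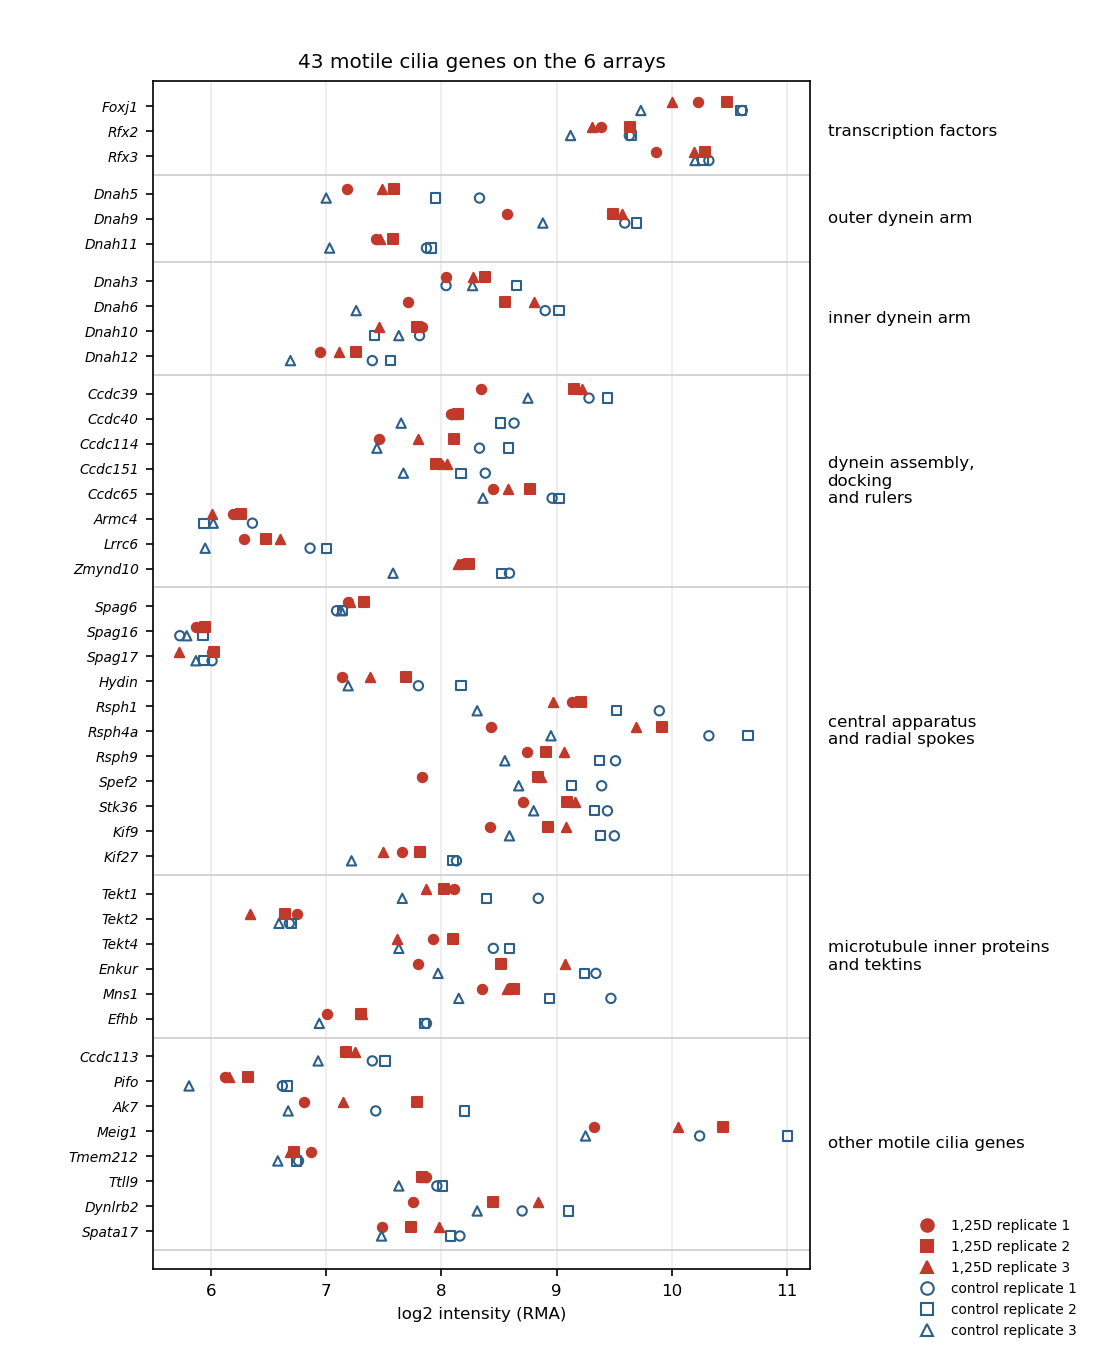
Log2 RMA intensity (x axis) of each of the 43 motile cilia genes (rows, grouped by role) in the 3 1,25D cultures (filled red) and the 3 control cultures (open blue), with circles, squares and triangles for replicates 1, 2 and 3. Control replicate 3 was the lowest of the controls for 38 of the 43 genes, and control replicates 1 and 2 lay on the right in most rows.

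The first group of members is the transcription factors. Foxj1, the forkhead factor required for motile cilia, had log2 intensities of 10.23, 10.48 and 10.00 in 1,25D cultures 1, 2 and 3, against 10.61, 10.60 and 9.73 in control cultures 1, 2 and 3. All 3 treated values fell inside the range of the controls, and control culture 3 lay 0.88 below the mean of the other controls, a 1.84-fold gap. Rfx2, a winged-helix factor that binds promoters of ciliary genes, had 9.38, 9.64 and 9.31 in the 1,25D cultures, against 9.63, 9.65 and 9.12 in the control cultures. It took the same shape on a smaller scale, with control culture 3 lower by 0.52. Rfx3, a relative of Rfx2 that acts in primary as well as motile cilia, had 9.86, 10.29 and 10.19 in the 1,25D cultures, against 10.32, 10.27 and 10.20 in the control cultures. The control cultures of Rfx3 had an SD of 0.06, so Rfx3 had no low control culture 3 of the kind seen for Foxj1 and Rfx2.

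Rfx factors bind the X-box, an imperfect inverted repeat, and promoters of the members were searched for its half-site in RefSeq windows of build GRCm38.p6 that run from 250 bases before to 50 after a gene's start. A window was at hand for 36 of the 43 members. The letters GTTGCC, on either strand, were in a window of 19 of the 36 members, or 52.8%, against 3821 of 27025 genes with a window, or 14.1%. A pair of looser half-sites, GTTNCC and then GGNAAC after 0 to 3 letters, was in 2 of the 36 (Ccdc151 and Pifo), or 5.56%, against 0.936% of all genes, and in Pifo it overlapped a GTTGCC match. The letters TGTTTA of the forkhead core were in 9 of the 36, or 25%, against 15.1% of all genes. A match is a run of letters and not a measured binding site. The members were picked as cilia genes, and the letters were picked for what Rfx and forkhead factors are known to bind.

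A stretch of 100 bases before the start is printed for 7 members, 5′ to 3′ along the gene. GTTGCC or its reverse complement GGCAAC is in capitals. For Rfx2, Spag16 and Mns1 the stretch ends short of the start, with the nearest match 110, 97 and 66 bases from the start. Rfx2 is shown as a factor whose own promoter holds the letters. Enkur, Mns1, Dynlrb2 and Tekt1 are shown as members with a match that were lower in control culture 3 than in the other controls. Spag16 is shown as a member with 2 matches with the narrowest range of the 43, and Dnah6 as one without these letters whose control cultures spread the furthest.
Rfx2, chr17:56831072-56831171, minus strand: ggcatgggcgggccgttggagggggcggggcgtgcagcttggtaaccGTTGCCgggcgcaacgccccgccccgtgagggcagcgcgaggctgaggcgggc
Enkur, chr2:21205366-21205465, minus strand: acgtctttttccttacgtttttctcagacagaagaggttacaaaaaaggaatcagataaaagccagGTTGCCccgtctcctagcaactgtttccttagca
Mns1, chr9:72438410-72438509, plus strand: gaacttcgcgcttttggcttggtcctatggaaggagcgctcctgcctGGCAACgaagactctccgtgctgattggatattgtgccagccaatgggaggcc
Dynlrb2, chr8:116504915-116505014, plus strand: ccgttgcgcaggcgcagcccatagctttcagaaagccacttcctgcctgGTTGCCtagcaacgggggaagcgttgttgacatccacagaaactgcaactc
Tekt1, chr11:72361883-72361982, minus strand: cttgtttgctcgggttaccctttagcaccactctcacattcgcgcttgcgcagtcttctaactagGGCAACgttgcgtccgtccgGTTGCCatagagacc
Spag16, chr1:69826820-69826919, plus strand: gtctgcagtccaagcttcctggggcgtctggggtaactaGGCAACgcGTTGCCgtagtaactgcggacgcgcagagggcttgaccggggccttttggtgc
Dnah6, chr6:73221632-73221731, minus strand: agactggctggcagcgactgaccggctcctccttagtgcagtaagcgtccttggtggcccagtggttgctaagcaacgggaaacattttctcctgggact
The letters were present in windows of genes that varied widely and of genes that did not. Among the latter were Spag6, Ttll9, Tekt2, Dnah10 and Rfx3 besides Spag16. The exact letters were not found in the window of Dnah6, although its printed stretch holds the inverted repeat gttgctaagcaac, which the search did not cover. Of Rfx3 the match lay outside the 100 bases next to the start.

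Outer dynein arm heavy chains, the large motor subunits of the outer row, had the same low cultures with wider swings. Dnah5 had log2 intensities of 7.18, 7.59 and 7.48 in 1,25D cultures 1, 2 and 3, against 8.33, 7.95 and 7.00 in control cultures 1, 2 and 3. Dnah9 had 8.57, 9.49 and 9.57 in the 1,25D cultures, against 9.59, 9.69 and 8.88 in the control cultures. For both genes culture 1 was the lowest of the treated cultures and culture 3 the lowest of the controls, and the groups overlapped. Dnah11 had the same low cultures, over a range of 0.88.

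Inner dynein arm heavy chains differed among themselves in the rows used. Dnah6 had 7.71, 8.55 and 8.80 in the 1,25D cultures, against 8.90, 9.02 and 7.26 in the control cultures. Control culture 3 was 1.70 below the mean of the other controls, a 3.25-fold gap and the widest of the 43 genes. Dnah12 had 6.95, 7.26 and 7.11 in the 1,25D cultures, against 7.40, 7.56 and 6.69 in the control cultures, the same shape at a smaller size. Dnah3 had 8.04, 8.38 and 8.27 in the 1,25D cultures, against 8.04, 8.65 and 8.27 in the control cultures, with no low control 3 in the row used, although control 3 was the lowest control in 25 of the gene's 33 rows. Dnah10 showed no low control 3, and its range was 0.41.

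The next group, of 8 genes, serves docking and assembly of dynein arms and the axonemal rulers. Ccdc39, which with Ccdc40 sets the repeat along the doublet, had 8.34, 9.15 and 9.22 in the 1,25D cultures, against 9.28, 9.44 and 8.75 in the control cultures. Ccdc114, a docking protein of the outer arm, had 7.46, 8.11 and 7.80 in the 1,25D cultures, against 8.33, 8.58 and 7.44 in the control cultures. Ccdc65, of the nexin-dynein regulatory complex, had 8.45, 8.77 and 8.58 in the 1,25D cultures, against 8.96, 9.02 and 8.36 in the control cultures. In these 3 genes the first treated culture and the third control culture were the lowest of their groups. In 7 of the 8 genes of this group the treated cultures lay wholly within the range of the controls. The exception was Ccdc39, whose first treated culture was below every control. Zmynd10 and Lrrc6, which act in the cytoplasm in putting dynein arms together, had control 3 lower by 0.97 and 0.98, while Armc4, another docking gene, had only 0.13.

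Radial spoke and central apparatus genes held the widest swing. Rsph4a, a radial spoke head protein, had 8.43, 9.91 and 9.69 in 1,25D cultures 1, 2 and 3, against 10.32, 10.66 and 8.95 in control cultures 1, 2 and 3. Its lowest and highest arrays differed 4.72-fold, the largest range of the 43 genes. Rsph1, of the same spoke head, had 9.13, 9.21 and 8.97 in the 1,25D cultures, against 9.89, 9.52 and 8.31 in the control cultures. The treated cultures of Rsph1 lay close together (SD 0.12) while the controls did not (SD 0.83). Rsph9, Hydin, Spef2, Stk36, Kif9 and Kif27 also had control 3 as the lowest control, by 0.58 to 0.90.

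Of the same group, Spag6, Spag16 and Spag17, central apparatus genes, spanned little. Their ranges were 0.25, 0.22 and 0.31. Spag6 had 7.19, 7.33 and 7.21 in the 1,25D cultures, against 7.09, 7.14 and 7.13 in the control cultures, and it was the single member whose groups did not overlap with 1,25D higher, which 2.63% of all genes also showed. No member had non-overlapping groups with 1,25D lower, which 1.52% of all genes showed. Mice carry a near-identical paralogue, Spag6l, which is no member and was looked up after its values were seen. Spag6l had 8.45, 9.28 and 9.20 in the 1,25D cultures, against 10.08, 9.97 and 8.26 in the control cultures. Which of the copies a probe reads was not examined, so the flat Spag6 row is uncertain as a measure of that gene alone.

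The tektins and other proteins of the microtubule lumen had the lowest control in control 3 for all 6 genes. Enkur had 7.80, 8.52 and 9.07 in the 1,25D cultures, against 9.34, 9.24 and 7.97 in the control cultures. Mns1 had 8.35, 8.63 and 8.57 in the 1,25D cultures, against 9.47, 8.94 and 8.15 in the control cultures. Control 3 was lower than the mean of the other controls by 1.32 for Enkur and by 1.05 for Mns1. Tekt1, Tekt4 and Efhb had gaps of 0.88 to 0.96, and Tekt2 had 0.11.

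Among the remaining genes, Meig1, known in mouse for spermiogenesis and also made in ciliated cells, had 9.32, 10.44 and 10.05 in the 1,25D cultures, against 10.24, 11.00 and 9.25 in the control cultures. Ak7, an adenylate kinase of the axoneme, had 6.81, 7.79 and 7.15 in the 1,25D cultures, against 7.43, 8.20 and 6.67 in the control cultures. Dynlrb2, a roadblock-type dynein light chain, had 7.75, 8.45 and 8.84 in the 1,25D cultures, against 8.70, 9.10 and 8.31 in the control cultures. For Meig1 and Ak7 culture 2 was the highest of each group, and for Dynlrb2 culture 3 was the highest of the treated. Ccdc113, Pifo, Spata17 and Ttll9, the last a tubulin-modifying enzyme, had control 3 lower by 0.36 to 0.83, and Tmem212 by 0.18.

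Over the 43 genes, control culture 3 was the lowest control for 38, or 88.4%, against 35.3% of all genes. It was the lowest of the 6 arrays for 24 of them, against 4148 of all 19938 genes. The first 1,25D culture was the lowest for 11 of the 43, against 2822 of all genes. Among the treated cultures the first was the lowest for 29 of the 43, or 67.4%, against 26.1% of all genes. The highest array was control 1 for 18 and control 2 for 19, against 3133 and 2456 of all genes. Control 3 lay below the mean of controls 1 and 2 by a median of 0.80 on the log2 scale, or 1.74-fold, and by at least 0.5 for 33 genes, against 4.51% of all genes. The median SD was 0.17 between the 1,25D cultures and 0.48 between the control cultures, where over all genes it was 0.14 and 0.15. The controls had the larger SD for 34 of the 43 genes, or 79.1%, against 54.7% of all genes, and the treated cultures lay inside the range of the controls for 25, or 58.1%, against 24.5%.

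Set against the control of the same replicate number, the members changed direction from number to number. The median log2 difference, 1,25D minus control, was -0.56 at replicate 1, -0.31 at replicate 2 and 0.36 at replicate 3, where the medians of all genes were 0.00, 0.03 and -0.01. The difference was below 0 for 36 of 43 genes at replicate 1 and for 37 at replicate 2, and above 0 for 36 at replicate 3. Of the 43, 33 had this full order of signs, or 76.7%, against 13.6% of all genes. All genes include 1094 with identical values on both replicate 1 arrays, none of them a member, which could not have this order. The members lay below the 5th percentile of all genes for 32 at replicate 1 and 25 at replicate 2, and above the 95th percentile for 24 at replicate 3. The largest pair differences were -1.89 for Rsph4a at replicate 1 and 1.54 for Dnah6 at replicate 3.

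**Figure D2:**
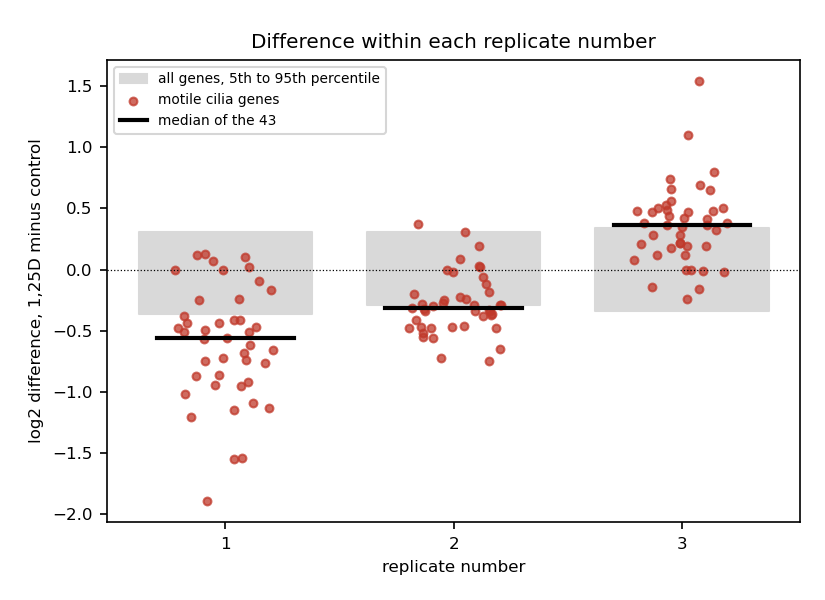
Log2 difference, 1,25D minus control (y axis), within replicate numbers 1, 2 and 3 (x axis) for the 43 motile cilia genes (points), with their median (black line) and the 5th to 95th percentile of all 19938 genes (grey). The medians were -0.56, -0.31 and 0.36.

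The 10 genes without this order of signs were Rfx3, Dnah3, Dnah10, Armc4, Spag6, Spag16, Spag17, Tekt2, Tekt4 and Tmem212. Tekt4 missed it by 1 value, a difference of -0.02 at replicate 3. Of the 43 genes, 7 had a mean below the 25th percentile of all genes, and 2 of these, Lrrc6 and Pifo, had the order of signs, against 31 of the other 36.

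Across all genes the replicate numbers tied the groups together, and the members departed from that at numbers 1 and 3. A gene's treated and control culture of equal number lay on the same side of their group means for 70.8%, 69.5% and 66.4% of all genes at replicates 1, 2 and 3. For the 43 members this held for 15 genes (34.9%) at replicate 1, 37 (86.0%) at replicate 2 and 18 (41.9%) at replicate 3. The share of all genes at replicate 1 was taken with the 1094 genes of identical values on both arrays left in. At number 2 both cultures were high for their group, at number 1 the treated culture was low and the control high, and at number 3 the control was low.

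Over both groups the members differed little on average. The fitted difference, 1,25D minus control, had a median of -0.16 and ran between -0.63 for Rsph4a and 0.13 for Spag6, with 38 genes below 0 and 5 above, where the median of all genes was 0.01. With limma on all genes, 0 of the 43 members passed an adjusted p of 0.05, against 5 genes in all (0.0251%). Without adjustment 0 members had a p under 0.05, against 1.48% of all genes. With the replicate number as a block, 0 members passed, against 18 genes in all (0.0903%), and 1 member (Tekt4) had an unadjusted p under 0.05, against 5.78%. Rsph4a averaged 9.34 ± 0.80 in 1,25D cultures and 9.98 ± 0.91 in control cultures (SD, n = 3 each), a difference of -0.63 with a standard error of 0.51 and a limma adjusted p of 1. The members had entered with these arrays in view, so the counts are given beside the background and nothing is read from them.

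The size of that average depended on which cultures entered it. Without control culture 3 the members' median difference was -0.44, and 25 members had an unadjusted limma p under 0.05, all with 1,25D lower, against 1.48% of all genes in that direction. None passed the adjustment, the lowest adjusted p being 0.99. With replicate 3 left out of the blocked fit the median was -0.48 and 32 members had an unadjusted p under 0.05 with 1,25D lower, against 6.43% of all genes, and again 0 passed, the lowest adjusted p being 0.068. With replicate 1 left out of the blocked fit the median was 0.05. With replicate 2 left out it was -0.09. In the unblocked fit it was -0.03 without control culture 1, and likewise without control culture 2. Without 1,25D culture 1 it was -0.06, with 0 members at an unadjusted p under 0.05, and without 1,25D cultures 2 and 3 in turn it was -0.22 and -0.17.

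Differences between replicate numbers, with treatment as a term, were called by limma's F test for 345 of all genes (1.73%) and for 0 of the 43 members. At an unadjusted p under 0.05 it was 9 members, against 29.5% of all genes. With 1 culture left out, 1 replicate number rests on a single array. Such a fit cannot tell a difference between numbers from one of that array, so its counts are not given.

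The size of the swing differed between members, and the range over the 6 arrays ran between 0.22 for Spag16 and 2.24 for Rsph4a. The median range was 0.94, or 1.92-fold between the lowest and highest array, against 0.40 over all genes. A range of at least 1 was seen for 18 members, or 41.9%, against 4.51% of all genes. By role, the median gap of control 3 below the other controls was 0.52 for the transcription factors, 0.86 for the outer arms, 0.43 for the inner arms, 0.78 for assembly, docking and rulers, 0.80 for spokes and central apparatus, 0.94 for the lumen proteins and tektins, and 0.61 for the rest.

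**Figure D3:**
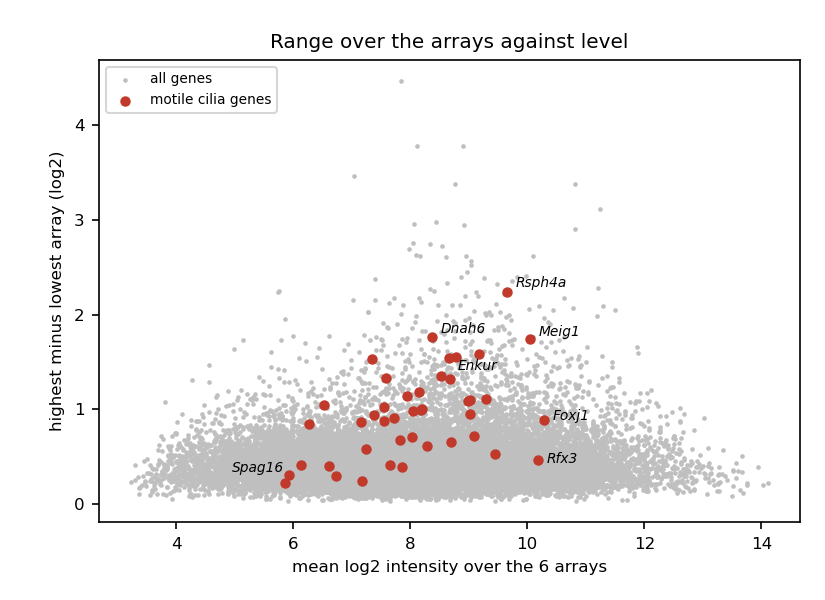
Highest minus lowest array on the log2 scale (y axis) against the mean log2 intensity over the 6 arrays (x axis) for all genes (grey) and the 43 motile cilia genes (red). The members with the largest ranges, Rsph4a at 2.24 and Dnah6 at 1.76, stood above most genes of their level, while Spag16 was dim and had a range of 0.22.

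For 6 members several array rows carried the symbol, so the choice of row could be examined. All 22 rows of Spef2 had control 3 as the lowest control, and 20 had the order of signs described above. All 3 rows of Dnah6 and both rows of Dnah12 had both features. Dnah3 was mixed, with control 3 lowest in 25 of 33 rows and the order of signs in 12, and the row used had a gap of 0.07 where the median of its rows was 0.32 and the widest 1.56. None of the 5 rows of Dnah10 and neither row of Armc4 had a low control 3.

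Genes of the axoneme outside the 43 were also highest in control cultures 1 and 2 and low in 1,25D culture 1 and control culture 3. Of 81 such genes listed, 73 were measured. Their summed linear intensity was 21703, 28247 and 29470 in the 1,25D cultures and 35689, 36199 and 22399 in the control cultures, with 1,25D culture 1 and not control culture 3 the lowest. Their median difference was -0.47, -0.24 and 0.24 at replicates 1, 2 and 3. The order of signs held for 53 of 73, or 72.6%, and control 3 was the lowest control for 65. Wdr63, an inner-arm component, had 7.41, 8.19 and 7.50 in the 1,25D cultures, against 8.40, 8.76 and 6.76 in the control cultures. Tppp3, a tubulin-binding protein found in ependymal cells, had 10.67, 10.85 and 10.52 in the 1,25D cultures, against 11.55, 11.38 and 10.29 in the control cultures. None of the 73 passed the adjusted threshold for treatment in either fit. This list was also drawn up with earlier results on these arrays known.

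Regulators of the multiciliated state and of centriole amplification followed less fully. Of 30 genes, 13 had the order of signs, and the median differences were -0.13, -0.13 and -0.01. Gmnc, which starts the multiciliated programme, had 6.85, 8.63 and 7.91 in the 1,25D cultures, against 8.42, 9.47 and 7.74 in the control cultures. Deup1, of the deuterosome on which centrioles multiply, had 6.95, 7.97 and 7.07 in the 1,25D cultures, against 7.56, 8.61 and 6.87 in the control cultures. For both genes culture 2 was the highest of each group and control 3 the lowest control. The 56 measured genes of intraflagellar transport and the primary cilium, structures that most cells of such a culture can carry, had median differences of -0.29, -0.11 and 0.12, with the order of signs for 25.

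Ependymal genes that are not axonemal varied less than the axoneme. Of 25 genes, 15 had the order of signs, with median differences of -0.27, -0.04 and 0.15, and their summed linear intensity was 50925 to 68218 in the 1,25D cultures and 57847 to 71157 in the control cultures. Prom1, a membrane protein of ependymal and progenitor cells, had 9.15, 10.21 and 9.64 in the 1,25D cultures, against 9.80, 10.25 and 8.37 in the control cultures. Its control 3 was low, as in the members, and lay below every treated culture. Gja1, a gap junction gene that astrocytes also use, had 12.51, 12.92 and 12.58 in the 1,25D cultures, against 12.75, 12.92 and 12.43 in the control cultures. Vim, a filament gene that astrocytes and progenitors also use, had 13.63, 13.78 and 13.73 in the 1,25D cultures, against 13.73, 13.81 and 13.83 in the control cultures. Control 3 was the lowest control for Gja1 and the highest for Vim.

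**Figure D4:**
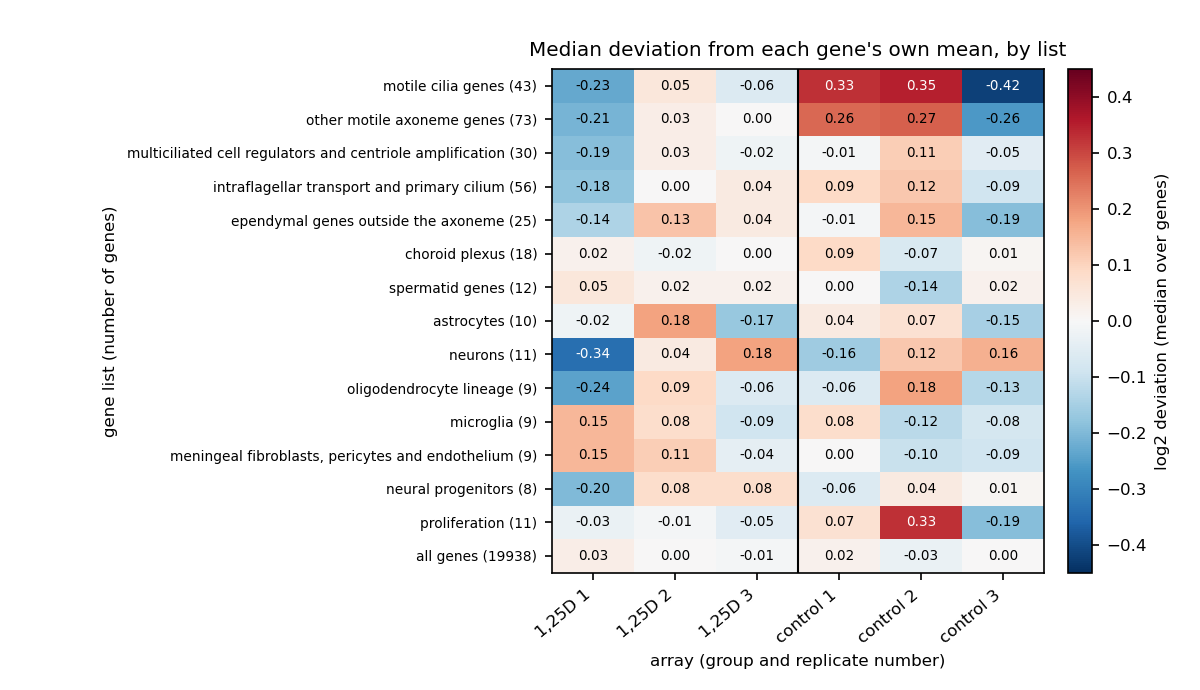
Median over each gene list (rows, with the number of genes) of the log2 deviation from each gene's own mean, on the 3 1,25D arrays (left) and the 3 control arrays (right). The motile cilia genes stood at 0.33 and 0.35 in controls 1 and 2 and at -0.42 in control 3. The other axoneme genes stood at 0.26, 0.27 and -0.26. The spermatid genes, most of them dim, did not go below -0.14 on any array.

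Markers of other cells that such a culture can hold were read on the same arrays, and their part in the cilia genes' differences was not tested. The 18 choroid plexus genes, of another multiciliated epithelium, summed to 7366 to 10780 in the 1,25D cultures and 8910 to 9591 in the control cultures, and 5 of the 18 had the order of signs. Folr1, a folate receptor of that epithelium, nonetheless had 10.13, 10.21 and 10.01 in the 1,25D cultures, against 10.73, 10.28 and 9.35 in the control cultures. The 12 spermatid genes, for germ cells that share axonemal proteins, had the order of signs for 0. They summed to 1198 to 1208 in the 1,25D cultures and 1093 to 1172 in the control cultures. Most were dim: 58.3% had a mean below the 25th percentile of all genes, against 16.3% of the members.

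Of glial lists, the 10 astrocyte genes summed to 28686 to 35107 in the 1,25D cultures and 29654 to 33426 in the control cultures, with control 3 the lowest control for 7 and the order of signs for 1. Gfap, the astrocyte filament, had 11.36, 12.06 and 11.15 in the 1,25D cultures, against 11.87, 11.95 and 11.00 in the control cultures. The 11 neuronal genes went another way, with sums of 2614, 4236 and 5033 in 1,25D cultures 1, 2 and 3 and of 3203, 4833 and 5095 in control cultures 1, 2 and 3. Dcx, of young neurons, had 6.78, 8.80 and 9.76 in the 1,25D cultures, against 6.83, 9.10 and 9.39 in the control cultures. The neuronal sums were thus lowest at number 1 and highest at number 3 in both groups, and control 3 was the lowest control for 0 of the 11. Single genes of the list differed. Stmn2 was lowest at number 2 in both groups, with 7.89 and 7.98. Among the controls Map2 was highest in control 2, at 11.24 against 10.95 in control 3.

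For the remaining lists the summed levels were as follows. The 9 oligodendrocyte genes summed to 3928 to 5323 in the 1,25D cultures and 4767 to 5865 in the control cultures, and the 9 microglial genes to 1179 to 1468 in the 1,25D cultures and 1111 to 1306 in the control cultures. The 9 genes of meningeal fibroblasts, pericytes and endothelium summed to 2201 to 2690 in the 1,25D cultures and 2039 to 2182 in the control cultures, and the 8 progenitor genes to 19177 to 24680 in the 1,25D cultures and 21564 to 24185 in the control cultures. The 11 proliferation genes summed to 6094 to 6632 in the 1,25D cultures and 6249 to 7238 in the control cultures, with control 3 the lowest control for 8 of them and the order of signs for 5. RMA gives no detection call, so none of these markers can be called absent. Across the 13 lists outside the members 0 genes passed limma's adjusted threshold for treatment in either fit. At an unadjusted limma p under 0.05 a list held at most 2 genes without the block, against 1.48% of all genes. With the block 5.78% of all genes had such a p. The largest counts were then 9 of the 56 intraflagellar transport and primary cilium genes and 5 of the 30 multiciliated regulators. Those lists are long, and some shorter lists held a similar or larger share. These were 3 of the 18 choroid plexus genes, 2 of the 11 neuronal genes and 2 of the 9 genes of meningeal fibroblasts, pericytes and endothelium. The 73 other axoneme genes held 2.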

How the data were processed

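Gene expression was measured on 6 arrays, 3 of 1,25D and 3 of control cultures. Per the submitters' processing notes, the authors used RMA in the Affymetrix software Expression Console, and they deposited intensity values per row, between 8.05 and 22019 on the linear scale. No source used here names versions or filters. For arrays the number of replicates limits the precision, and as no label ties replicates to separate litters, the p-values cover the spread of these cultures and no more.

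The log2 of the deposited intensity was used throughout. Of 35556 rows, 21789 carried 1 gene symbol in the platform annotation, 1621 several and 12146 none. They stood for 19938 genes, 999 of them with several rows, read from the brightest row. Both arrays of replicate 1 held identical values for 1094 genes, none of them a member, against 2 and 5 genes at replicates 2 and 3. Groups were compared with limma 3.58.1 in R 4.3.3 (lmFit, eBayes) without a block, adjusted after Benjamini-Hochberg over all genes at 0.05, and the script was tested on simulated data. Replicate numbers were checked for pairing: deviations from the group means correlated at 0.512, 0.645 and 0.457 over genes for equal numbers, against -0.513 to -0.012 for unequal ones, so the blocked fit stands beside the other.

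The 43 members and the 13 companion lists were chosen with earlier results of these data known. Every-array values are given for the 3 transcription factors and, in each of 7 roles, the 2 members with the highest mean and the 2 with the largest range, which made 18 genes. Spag6 was added after its values were seen. From the companion lists the same kind of rule named genes, and of these only some are printed. No genome was at hand, and promoters came from a RefSeq table of GRCm38.p6. Alternatives were quantile normalisation, median centring, a filter on the lowest 25% of genes, a trended prior, all rows, the mean of a gene's rows, the replicate block and leaving out each culture.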

Additional observations from a re-analysis of the deposited data

How the results depend on the processing

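No member passed for 1,25D minus control under any alternative run. Genes called for 1,25D minus control numbered 5, against 18 with the replicate block, 3 with quantile normalisation, 0 over all rows of the table, and 0 to 2 when 1 culture was left out. In the replicate block with 1 pair left out they numbered 40 without replicate 1, 3 without replicate 2 and 45 without replicate 3. Genes called for replicate number were 345, against 88 with quantile normalisation, 227 with the lowest 25% of genes left out, 0 over all rows, and 0 to 2267 when 1 culture was left out, and the members among them 0 in all of these but the last, where they were 0 to 24. The cause was not tested. Leaving out a culture moved the members' median difference, -0.16, to between -0.44 (without control 3) and -0.03 (without control 1 or control 2). The sign of the fitted difference turned for 21 of the 43 members in at least 1 of these omissions, for 15 without control 2, 10 without control 1, 7 without 1,25D 1, 4 without 1,25D 3, 1 without 1,25D 2 and 0 without control 3. Foxj1 was 0.07 without control 1, Dnah6 0.28 without 1,25D 1 and Rsph1 0.19 without control 1. Moves beyond 1 SD of a gene's own differences at the 3 replicate numbers were those of Dnah3 and Tekt4. Dnah3 moved to 0.07 without control 2, and Tekt4 to -0.63 without control 3. The median pair differences stayed between -0.67 and -0.54, -0.34 and -0.31, and 0.36 and 0.40 at replicates 1, 2 and 3 under the other scalings, filter and rows. With no detection call, it is not known which dim members were above background.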

Other observations

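Genes with the members' order of signs and a difference of at least 0.4 on the log2 scale at every replicate number were counted after the values were seen. There were 55 such genes, and 6 with every sign turned. Of the 55, 9 were motile cilia genes of the 43 (16.4% of the 55 and 20.9% of the members), 14 were other axoneme genes (25.5% of the 55 and 19.2% of that list), 1 was a multiciliated cell regulator, 1 an intraflagellar transport or primary cilium gene, and 30 stood in none of the lists. The lists do not hold every cilia gene, so standing in none of them does not make a gene unrelated to cilia. Spag6l, the paralogue of the member Spag6, is among the 30.

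The largest summed differences outside the lists were those of Fam216b and 1700028P14Rik. Fam216b had 8.17, 9.51 and 9.53 in 1,25D cultures 1, 2 and 3, against 10.04, 10.34 and 7.95 in control cultures 1, 2 and 3. 1700028P14Rik had 6.40, 7.38 and 7.28 in the 1,25D cultures, against 8.34, 8.68 and 6.31 in the control cultures. Kcnj16, a potassium channel gene, had 7.96, 9.74 and 9.17 in the 1,25D cultures, against 9.49, 10.20 and 8.20 in the control cultures. The 3 genes were picked for this shape, so their values are a description. In Nes, of the progenitor list, control 3 was also the lowest control, with 10.02, 11.05 and 10.48 in the 1,25D cultures, against 10.85, 11.09 and 9.86 in the control cultures.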
